A study of Mus musculus with 9 samples.

Results

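Nuclear-encoded subunits of the mitochondrial respiratory chain were followed in mouse bone marrow-derived macrophages (BMDM) that had received macrophage exosomes or vehicle. The members are the protein-coding genes whose GENCODE M21 symbol begins with Nduf followed by a, b, c, s or v and a digit, is Sdha, Sdhb, Sdhc, Sdhd or Cyc1, or begins with Uqcr, with Cox4 to Cox8, or with Atp5. This gave 86 of the 55536 gene IDs in the count table, with 37 genes of complex I, 4 of complex II, 9 of complex III, 18 of complex IV and 18 of complex V. The complex of each gene was assigned by its symbol. The 86 entries carry 85 symbols because Atp5o is annotated under 2 IDs. The rule uses names only and no measured value, although it was set with earlier results of these data known.

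The respiratory chain passes electrons from NADH and succinate to oxygen and pumps protons out of the mitochondrial matrix, and ATP synthase uses the returning protons to make ATP. Complex I (NADH dehydrogenase) and complex II (succinate dehydrogenase) feed electrons to coenzyme Q, complex III hands them to cytochrome c, complex IV (cytochrome c oxidase) reduces oxygen, and complex V is the ATP synthase. Most subunits are encoded in the nucleus and imported, while a few central ones are encoded by mitochondrial DNA. Macrophages alter their use of this chain when they are activated, and succinate oxidation and complex I have both been tied to their inflammatory output.

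All recipient cells were wild-type BMDM, grown from marrow of male mice 6 to 12 weeks old with the growth factor M-CSF at 25 ng/mL over 6 days, and every group was kept for 18 hours after the addition. The PBS group received PBS. The WT-exo group received exosomes at 2e+09 particles/mL from wild-type BMDM, and the EKO-exo group the same dose from BMDM of ApoE-deficient mice. ApoE, a lipid carrier that macrophages secrete, was thus missing only from the donor cells, so Apoe in the recipients does not check the labels. Each group had 3 libraries, described as biological replicates without saying whether mice or exosome preparations were separate, so p-values here speak only for the spread among the libraries at hand, which may be technical.

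The total count was 28581306 to 35929596 per library, and 13815 genes passed the filter on low counts. Macrophage markers were abundant in all 9 libraries, with a summed level (7 genes) of 22100 to 23300 CPM (counts scaled to library size) in PBS, 20500 to 21100 in WT-exo and 20300 to 21200 in EKO-exo. The sums of both exosome groups thus lay below PBS. Lyz2 had the largest share, at 12600 to 14700 CPM. Adgre1, Csf1r, Fcgr1, Itgam and Lyz2 were lower than in PBS in both exosome groups at an adjusted p under 0.05 in edgeR. Cd68 was higher with WT-exo only, and Mertk passed in neither group. All 4 erythroid markers were at 0. The 8 neutrophil markers summed to 20.8 to 29.9 CPM in PBS, 10.3 to 30.7 in WT-exo and 3.78 to 18.0 in EKO-exo, which lay below PBS. The 5 fibroblast markers summed to 8.91 to 63.8 CPM in PBS, 16.6 to 29.5 in WT-exo and 5.85 to 24.6 in EKO-exo, ranges that overlap. The part of these cells in the results below was not tested, and in bulk RNA fewer cells of a type and less RNA per cell cannot be told apart. In a principal component analysis, replicate 3 of WT-exo stood apart on the first component, and replicates 2 of WT-exo and of EKO-exo lay at opposite ends of the second.

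Of the 86 members, 79 passed the filter, namely 36 of complex I, all of complexes II and III, 13 of complex IV and 17 of complex V. Their median level was 44.0 RPKM (CPM per kilobase of the principal transcript, mean over 9 libraries), against 6.92 RPKM for all genes tested. The level of 74 of the 79 exceeded that of the median gene. Together the members took 0.408% to 0.426% of the counts of a library. Their median coefficient of variation over the 9 libraries was 7.67%, against 11.3% for all genes tested. Genes of like level were not compared, so the part of the members' higher level in this difference was not tested. The coefficient of 61 of the 79 was under the all-gene median, and the steadiest was Atp5a1, the alpha subunit of the catalytic head of ATP synthase, at 1.53%.

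Complex IV had the highest median level, 75.1 RPKM over its 13 tested genes. Cox4i1, the ubiquitous form of subunit 4, was the most abundant member of all at 268.1 ± 13.7 RPKM (SD over 9 libraries), followed within the complex by Cox6a1 at 141.5 ± 5.84 RPKM. Complex V had a median of 53.0 RPKM over 17 genes and the next most abundant members. These were Atp5b, the beta subunit that carries the catalytic sites, at 189.7 ± 5.42 RPKM, and Atp5a1 at 173.3 ± 2.66 RPKM. Their partners in the soluble head lay lower, with Atp5d (delta) at 114.6 RPKM, Atp5e (epsilon) at 83.9 RPKM and Atp5c1 (gamma, the central shaft) at 79.7 RPKM.

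The 4 genes of complex II had a median of 56.6 RPKM. Sdha, the flavoprotein that oxidises succinate, stood at 86.9 ± 3.83 RPKM, and Sdhb, the iron-sulfur subunit, at 66.3 ± 5.22 RPKM. The membrane anchors Sdhd and Sdhc lay below them at 46.9 ± 3.59 and 27.7 ± 1.56 RPKM. Complex III had a median of 34.3 RPKM and was led by the hinge protein gene Uqcrh at 115.6 ± 7.74 RPKM, with Uqcrq next at 81.1 ± 8.17 RPKM and Uqcrb last at 24.1 ± 2.88 RPKM. Complex I, the largest complex, had the lowest median, 32.2 RPKM over 36 genes. Its most abundant mRNAs were those of the accessory subunits Ndufa6, at 83.7 ± 8.97 RPKM, and Ndufb7, at 79.2 ± 3.45 RPKM. Among its core subunits, which hold the electron path, Ndufs7 stood at 48.3 RPKM, Ndufs8 at 26.9 RPKM, Ndufs1 at 25.8 RPKM, Ndufv1 at 25.6 RPKM, Ndufv2 at 21.1 RPKM and Ndufs3 at 20.05 RPKM.

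**Figure D1:**
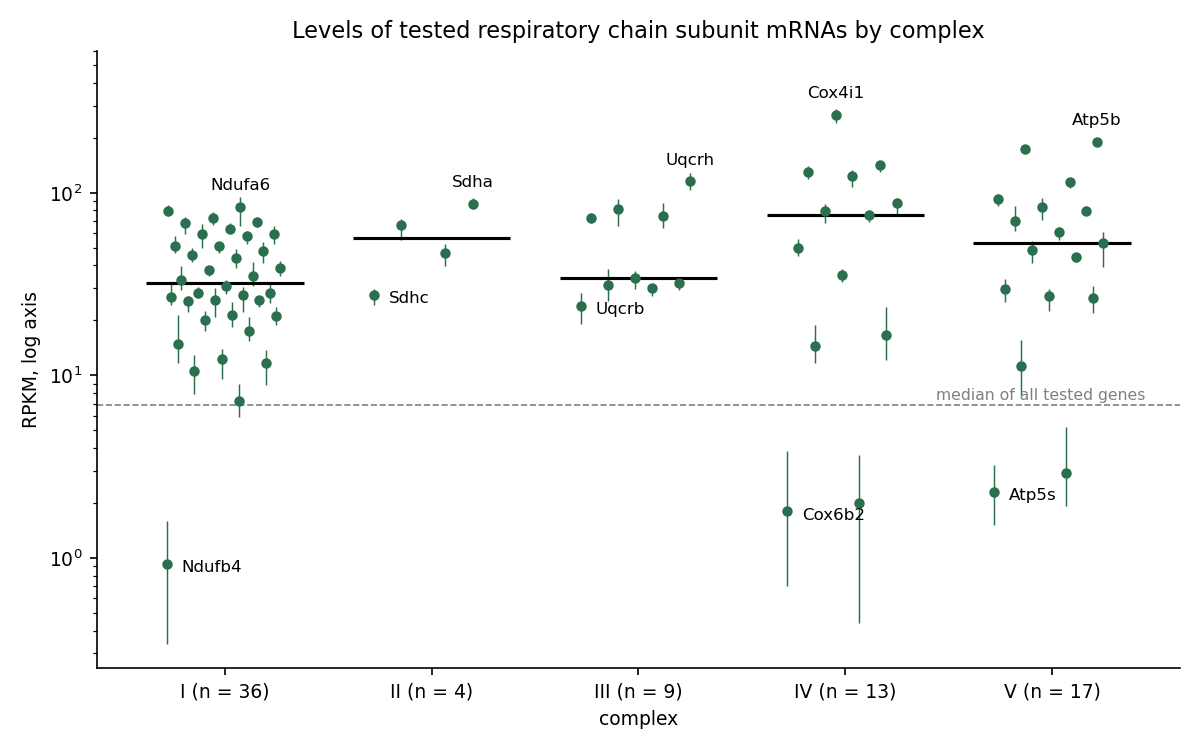
RPKM on a log axis of the 79 tested subunit genes, by complex. Each point is the mean of 9 libraries with its range as a vertical line, black bars are the median of a complex, and the dashed line is the median of all tested genes at 6.92 RPKM. Most genes lie above that line, with Cox4i1 highest at 268.1 RPKM and Ndufb4 lowest at 0.925 RPKM.

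These levels depend on the length used. With the length of all merged exons of a gene, tried after the values were seen, the medians fell to 18.1, 40.3, 25.5, 29.2 and 15.9 RPKM for complexes I to V, and complex II became the highest. Cox4i1 still led complex IV and Sdha complex II, while Ndufa2 led complex I, Uqcr10 complex III and Atp5a1 complex V. Many of these genes have near-identical copies elsewhere in the genome, among which reads can be ambiguous. Among tested members, 21 had at least 1 transcript of another gene matching them at 95% identity or more, and these had a median of 27.3 RPKM, against 50.5 RPKM for the other 58. The copies themselves were given 0 to 98 counts over all libraries. How reads shared between copies were counted is not given in the sources used here, and the part of copies in the lower levels was not tested.

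The lowest tested member also has such a copy. Ndufb4, an accessory subunit of complex I, had 10 to 51 counts per library and a level of 0.925 ± 0.489 RPKM, in the same complex as Ndufb7 at 79.2 RPKM. Its copy Ndufb4c was given 0 counts in all. Cycs, the mobile electron carrier cytochrome c and not a member by the rule, likewise had 1 to 35 counts per library and has 4 near-identical copies. The values of Ndufb4 and Cycs are uncertain as measures of their mRNA. The same holds for the members that overlap exons of another gene over more than 20% of their length, Ndufa13, Ndufb6 and both entries of Atp5o, since the strand setting of the counting is not given.

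Several subunits come as pairs or triplets of isoforms that differ between tissues, and in these macrophages the ubiquitous form prevailed in each of 5 families. Cox4i1 made up 99.9% to 100% of its family's summed RPKM in a library, and Cox6a1 98.9% to 100%. Cox6a2, the heart and muscle form, had 0 to 37 counts per library, and Cox4i2, the lung form, was at 0 in all libraries but 1, where it had 6 counts. Cox6b1 took 96.9% to 99.5%, with Cox6b2, the testis form, at 1.80 ± 1.04 RPKM. Cox8a was the only form of subunit 8 with any count, as Cox8b and Cox8c were at 0 in all 9 libraries, and Ndufa4 the only one of its pair, as Ndufa4l2, a hypoxia-induced paralog, was at 0. Cox7b2 and the second entry of Atp5o were also at 0. These 7 genes, Ndufa4l2, Cox4i2, Cox6a2, Cox7b2, Cox8b, Cox8c and the second Atp5o entry, are the members that the filter removed.

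The remaining 2 families were mixed. In the Cox7a family, Cox7a2l, which takes part in joining complexes III and IV into supercomplexes, stood at 75.1 ± 4.41 RPKM, Cox7a2 at 49.9 ± 3.53 RPKM and the muscle form Cox7a1 at 2.00 ± 0.97 RPKM. The c-ring of ATP synthase, the rotor that protons turn, is built from identical mature proteins made by 3 genes. Atp5g3 gave most of the counted c-ring mRNA at 92.0 ± 5.06 RPKM, Atp5g1 11.2 ± 2.40 RPKM and Atp5g2 2.93 ± 0.975 RPKM. Atp5g1 made up 8.96% ± 0.81 of the counted c-ring mRNA in PBS (SD, n = 3), 10.0% ± 0.67 in WT-exo and 12.6% ± 1.1 in EKO-exo. Near-identical copies were found for Atp5g1 and Atp5g2 but not for Atp5g3. The part of copies in these levels and shares was not tested.

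Promoter sequence was compared because nuclear respiratory genes are known to share sites for NRF1, for ETS factors such as GABP, and for YY1. RefSeq windows of 250 bases before to 50 after the annotated start (GRCm38.p6) were found for 66 of the 86 members, as 71 windows. The members not matched include Atp5a1, Atp5f1, Atp5mpl, Atp5o (second entry), Atp5s, Cox4i1, Cox4i2, Cox6a2, Cox6c, Cox8c, Cyc1, Ndufa2, Ndufa4l2, Ndufb9, Ndufs1, Sdhc, Uqcrb, Uqcrc2 and Uqcrq. The NRF1 motif was searched on both strands as GCGCANGCGC, in which N is any base. It was found in 25.4% of the members' windows, against 9.92% of the 12698 windows of tested genes and 4.6% of all 32851 windows. The 17 genes with a match were 7 of complex I, 2 of complex II, 1 each of complexes III and IV, and 6 of complex V. The ETS core CGGAAG was in 38% of the members' windows, against 30.8% for tested genes and 16.9% for all. The YY1 motif AAGATGGC was in 12.7%, against 4.5% and 2.75%, and its 9 genes were 7 of complex I and 2 of complex V. CCAAT was in 42.3%, against 37.8% and 37.4%, and TATAAA in 11.3%, against 7.13% and 13.6%. The members' windows include those of Cox7b2 and Cox8b, which did not pass the filter on low counts and both hold TATAAA. The windows of tested genes leave such genes out. The ETS, YY1, CCAAT and TATAAA letters were searched on both strands too, and no motif contains another. A match describes the letters and is not a binding site.

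Before the start, 19 NRF1 matches at 18 distinct places were found 10 to 191 bases from it, since 2 overlapping windows of Ndufa5 hold the same match. The first of the sequences below belong to the 2 genes that passed the test in the comparisons that follow, and the others to the most abundant member of complexes I, IV and V with an NRF1 match in a stretch of at least 100 bases outside annotated exons. Each runs 5′ to 3′ on the gene's strand, in lower case with NRF1 matches in capitals, and covers only bases outside GENCODE M21 exons. All lie on minus strands, at chr6:11907498-11907700 for Ndufa4, chr11:4704345-4704594 for Uqcr10, chr4:123718203-123718436 for Ndufs5, chr5:115348982-115349129 for Cox6a1 and chr11:115419963-115420127 for Atp5h.
Ndufa4: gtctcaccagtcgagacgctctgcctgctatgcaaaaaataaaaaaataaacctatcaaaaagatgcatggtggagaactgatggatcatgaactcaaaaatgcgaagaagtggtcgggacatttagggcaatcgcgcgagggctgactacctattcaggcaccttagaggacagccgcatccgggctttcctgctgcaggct
Uqcr10: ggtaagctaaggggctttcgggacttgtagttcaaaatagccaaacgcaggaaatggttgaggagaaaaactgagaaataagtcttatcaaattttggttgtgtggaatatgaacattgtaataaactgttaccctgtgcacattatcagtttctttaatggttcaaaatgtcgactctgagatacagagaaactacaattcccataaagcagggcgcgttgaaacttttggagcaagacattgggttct
Ndufs5: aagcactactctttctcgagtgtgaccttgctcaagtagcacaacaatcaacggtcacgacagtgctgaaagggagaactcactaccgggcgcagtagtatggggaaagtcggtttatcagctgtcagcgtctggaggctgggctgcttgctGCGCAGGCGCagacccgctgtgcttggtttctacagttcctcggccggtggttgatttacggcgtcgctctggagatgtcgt
Cox6a1: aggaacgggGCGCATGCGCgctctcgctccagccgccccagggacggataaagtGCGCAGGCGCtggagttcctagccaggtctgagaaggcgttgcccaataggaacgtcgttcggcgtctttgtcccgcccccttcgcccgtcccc
Atp5h: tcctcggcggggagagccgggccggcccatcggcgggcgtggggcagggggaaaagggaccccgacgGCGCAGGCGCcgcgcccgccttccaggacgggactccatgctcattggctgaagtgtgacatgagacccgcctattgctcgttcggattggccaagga
Ndufa4 and Uqcr10 have no such match in their windows, which says only that these letters are not there. Cox6a1 has 2, at 162 and 117 bases before the start, and Ndufs5 and Atp5h have 1 each, at 98 and 141 bases.

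Wild-type exosomes were compared with PBS to ask what exosomes of normal macrophages change in recipient macrophages. 2 of the 79 members rose and none fell at an adjusted p under 0.05 (edgeR quasi-likelihood test, Benjamini-Hochberg over all 13815 genes), beside 4.11% of all genes tested. They were Ndufa4, higher by 23.6%, and Uqcr10, higher by 24.8%, while Sdha, Ndufc1, Atp5k and Cox5b did not pass. The log2 fold change was above 0 for 55 of the 79 members, with a median of 0.06, against a median of -0.003 over all genes. By complex the medians were 0.05 (I), 0.02 (II), -0.04 (III), 0.07 (IV) and 0.05 (V). Values above 0 made up 25 of 36 genes in complex I, 2 of 4 in II, 3 of 9 in III, 11 of 13 in IV and 14 of 17 in V. With Ndufa4 counted in complex IV, the medians of I and IV were 0.03 and 0.08.

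Ndufa4, which is named for complex I but now known as a subunit of complex IV, lies on chromosome 6 at 11900292 to 11907497 (GRCm38, minus strand). Its level was 33.5, 30.3 and 31.4 CPM in the PBS libraries and 39.9, 38.5 and 39.3 CPM in the WT-exo libraries. The lowest WT-exo library was thus above the highest PBS library. The log2 fold change was 0.31 ± 0.09 (SE), a rise of 23.6% with a 95% interval from 9.24% to 39.9%, at an adjusted p of 0.0369 in edgeR. The gene has neither a near-identical copy nor an exon shared with another gene.

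Uqcr10, a small accessory subunit of complex III, lies on chromosome 11 at 4701973 to 4704342 (GRCm38, minus strand) and likewise has no copy or overlap. Its level was 27.81, 27.99 and 30.68 CPM in PBS and 37.9, 37.0 and 33.0 CPM in WT-exo. Every WT-exo library was higher than every PBS library, with replicate 3 of WT-exo nearest to PBS. The log2 fold change was 0.32 ± 0.09 (SE), a rise of 24.8% with an interval from 9.24% to 42.5%, at an adjusted p of 0.045 in edgeR.

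Both calls lie close to the threshold. In a fit of only the PBS and WT-exo libraries neither passed, with adjusted p = 0.0514 for Ndufa4 and 0.0595 for Uqcr10 in edgeR, and over 15 alternatives the adjusted p ran from 0.0166 to 0.154 and from 0.029 to 0.176, under the threshold in 9 each. Leaving out PBS replicate 2 or WT-exo replicate 1 left 0 members called, leaving out PBS replicate 1 or EKO-exo replicate 1 left 1 (Ndufa4), PBS replicate 3 or WT-exo replicate 3 left 1 (Uqcr10), and WT-exo replicate 2 left 1 (Sdha).

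The other members differed less or with wider errors. Sdha, the succinate-oxidising subunit, read 243.9, 244.2 and 237.3 CPM in PBS and 263.8, 247.0 and 272.4 CPM in WT-exo, which do not overlap. Its log2 fold change of 0.11 ± 0.04 (SE) had an adjusted p of 0.123 in edgeR, which became 0.0362 without replicate 2 of WT-exo, the lowest of its group, and 0.44 without replicate 3, the highest. Ndufc1, an accessory subunit of complex I, read 7.36, 7.69 and 7.90 CPM in PBS and 8.99, 11.2 and 10.4 CPM in WT-exo, again without overlap, at a log2 fold change of 0.41 ± 0.16 and an adjusted p of 0.192 in edgeR.

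Including the 2 called genes, 9 of the 79 members had an unadjusted p under 0.05, against 1936 of the 13815 genes tested, and in all 9 the level was higher in WT-exo. The remaining 5 include Ndufv1, the NADH-binding core subunit of complex I (log2 fold change 0.18). In complex IV they are Cox5b (0.37, or 0.19 without WT-exo replicate 2) and Cox4i1 (0.10, or 0.05 without PBS replicate 1). Atp5k (0.26) and Atp5s (0.64) are placed in complex V by their symbols. Cox5b shows how the spread can swamp a difference of this size, with 12.3, 15.4 and 10.6 CPM in PBS and 15.9, 20.4 and 13.3 CPM in WT-exo. The libraries of the 2 groups did not overlap for 13 members, 12 above PBS and 1, the complex I subunit gene Ndufa1, below, beside 17.5% of all genes tested. Among members with values below 0 the lowest p were those of Uqcrh (-0.12, adjusted p = 0.475 in edgeR) and Ndufb11 (-0.13, adjusted p = 0.556 in edgeR).

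Groups without overlap were no more frequent among the members than among all genes tested, at 17.5% for both directions together. That share was not split by direction, so whether 12 members above PBS is unusual was not tested. The 12 members above PBS in every WT-exo library came from all complexes. In complex I they were Ndufa4, Ndufa9, Ndufb8, Ndufc1 and the core gene Ndufv1, in complex II Sdha, in complex III Uqcr10 and Cyc1, in complex IV Cox6a1 and Cox8a, and in complex V Atp5k and Atp5s. Cyc1, the cytochrome c1 that passes electrons on to cytochrome c, read 44.5, 48.1 and 48.5 CPM in PBS and 52.0, 51.9 and 49.5 CPM in WT-exo, where replicate 3 lay nearest to PBS. Cox8a read 67.2, 72.02 and 72.03 CPM in PBS and 74.95, 76.98 and 75.25 CPM in WT-exo, and in both genes the log2 fold change was small, at 0.12 ± 0.08 and 0.10 ± 0.06 (SE). Atp5k, a small membrane subunit of ATP synthase, read 22.8, 25.2 and 22.8 CPM in PBS and 27.6, 31.5 and 25.7 CPM in WT-exo, where WT-exo replicate 2 was the highest. Ndufa1, the gene below PBS in every WT-exo library, read 25.3, 25.4 and 25.9 CPM against 22.1, 22.5 and 24.4 CPM, at -0.15 ± 0.10 and an adjusted p of 0.578 in edgeR.

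**Figure D2:**
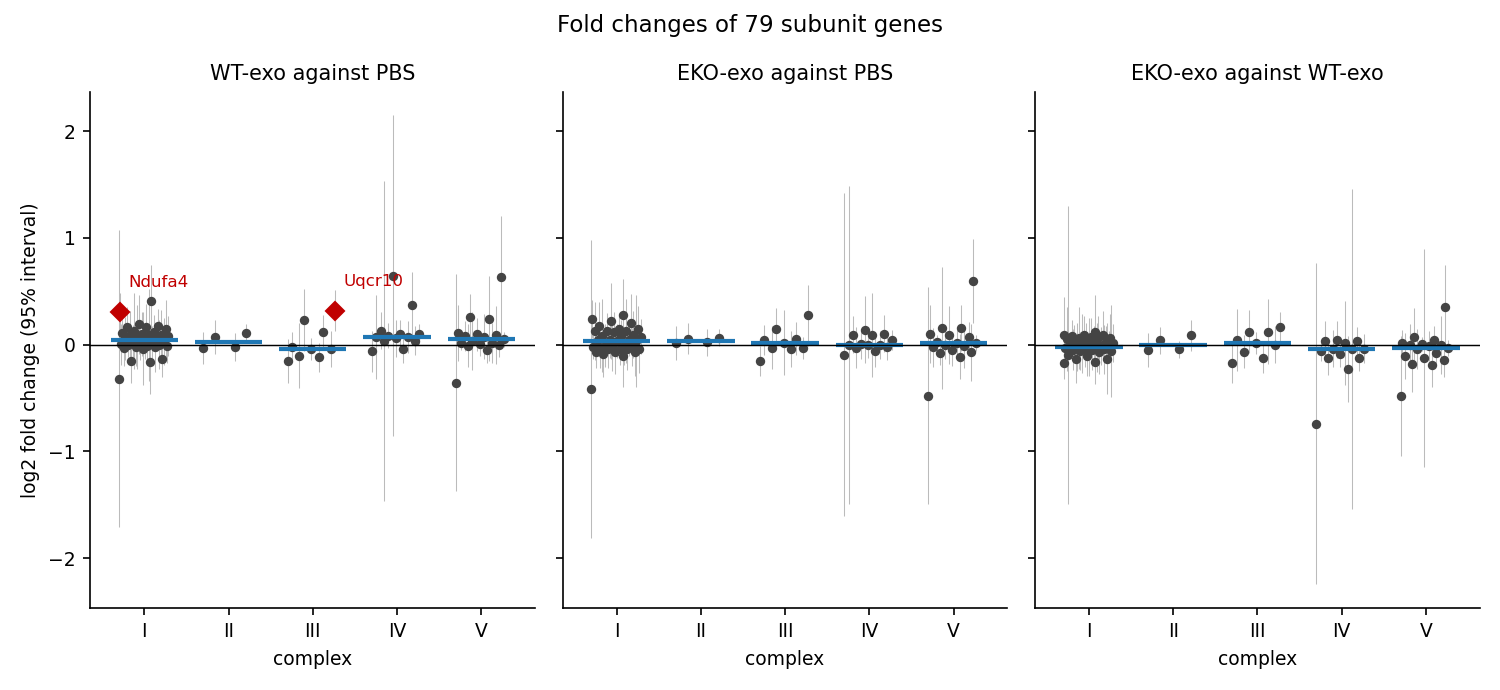
Log2 fold changes with 95% intervals of 79 subunit genes, by complex, for WT-exo against PBS, EKO-exo against PBS and EKO-exo against WT-exo. Blue bars are medians of a complex and red diamonds are genes with an adjusted p under 0.05, which are Ndufa4 and Uqcr10 in the first panel. The medians lie within 0.1 of 0 in every panel, and the widest intervals belong to genes with few counts such as Cox7a1, Cox6b2, Ndufb4 and Atp5g2.

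Exosomes of ApoE-deficient donors were compared with PBS in the same way, and this comparison shares its PBS libraries with the former. No member passed at an adjusted p under 0.05 in edgeR, DESeq2 or limma-voom, beside 4.23% of all genes tested in edgeR. An unadjusted p under 0.05 was found for 3 of the 79, against 1805 of the 13815 genes tested. These were Atp5g1 and Ndufa4, with higher values in EKO-exo, and Uqcrc2, with lower values. The log2 fold change was above 0 for 44 of the 79 members, with a median of 0.02, against a median near 0 over all genes (-0.0005). By complex the medians were 0.04 (I), 0.04 (II), 0.02 (III), -0.002 (IV) and 0.02 (V).

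Atp5g1, a c-ring gene, had the largest log2 fold change of any member here. It read 5.50, 6.11 and 4.67 CPM in PBS and 9.35, 7.58 and 7.67 CPM in EKO-exo. All EKO-exo libraries were above all PBS libraries. The log2 fold change was 0.60 ± 0.20 (SE), or 51.3% with an interval from 14.9% to 99.2%, at an adjusted p of 0.0843 in edgeR. Atp5g1 has a near-identical copy, Gm10039, with 44 counts beside 1951 of its own over all libraries.

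Ndufa4 read 41.3, 36.4 and 35.0 CPM in EKO-exo, above every PBS library, at a log2 fold change of 0.24 ± 0.09 (SE) and an adjusted p of 0.136 in edgeR. Uqcr10, called with wild-type exosomes, read 31.5, 35.2 and 29.4 CPM, which overlapped PBS, and differed from it by 10.9% with an interval from -2.92% to 26.7%. Uqcrc2, a core subunit of complex III, read 68.7, 66.9 and 67.4 CPM in PBS and 65.1, 56.2 and 61.5 CPM in EKO-exo, without overlap. Its log2 fold change was -0.15 ± 0.07 (SE) at an adjusted p of 0.308 in edgeR. Without EKO-exo replicate 2, the log2 fold change was -0.09 for Uqcrc2 and 0.08, in place of 0.15, for Uqcr10. In all, 8 members did not overlap, 7 above PBS and 1 below, beside 18.3% of all genes tested. The 7 were Ndufa4, Ndufa9, Ndufb2, Ndufb6, Ndufc1, Sdha and Atp5g1, of which Ndufa4 belongs to complex I by its symbol only. Ndufa9, an accessory subunit next to the core of complex I, read 40.5, 42.5 and 43.2 CPM in PBS and 44.8, 46.8 and 47.9 CPM in EKO-exo, at 0.14 ± 0.08 (SE) and an adjusted p of 0.444 in edgeR. Uqcr11, another small subunit of complex III, read 11.4, 13.5 and 12.1 CPM in PBS and 14.5, 16.9 and 13.5 CPM in EKO-exo, whose lowest library lies at the level of the highest PBS library (0.27 ± 0.14 SE, adjusted p = 0.425 in edgeR).

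**Figure D3:**
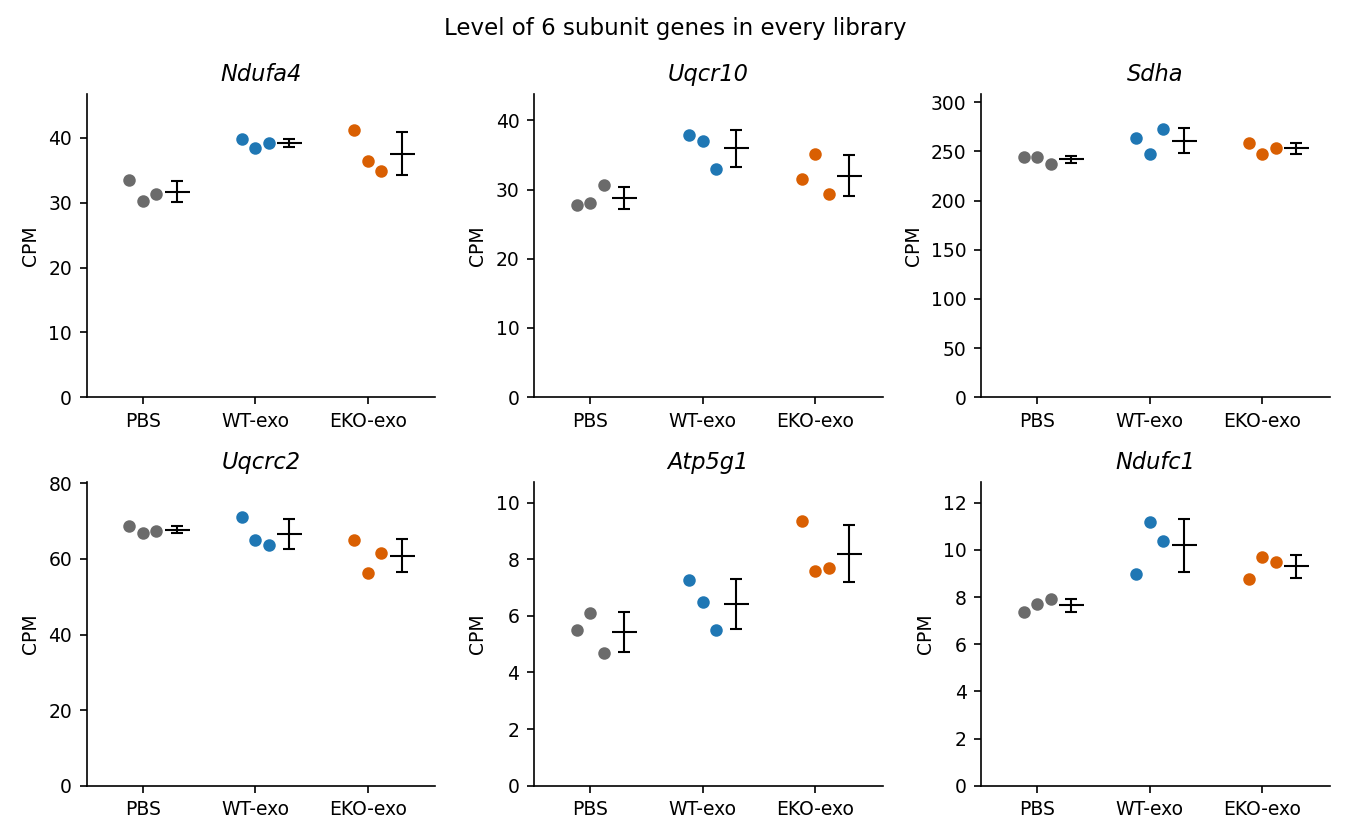
CPM of 6 subunit genes in every library of PBS (grey), WT-exo (blue) and EKO-exo (orange), with the mean and SD of each group in black. The WT-exo libraries of Ndufa4 and Uqcr10 lie above all PBS libraries, the EKO-exo libraries of Atp5g1 above all PBS libraries, and those of Uqcrc2 below.

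The direct comparison of both exosomes asks whether ApoE in the donor macrophage matters to these genes in the recipient. No member passed at an adjusted p under 0.05 in edgeR, DESeq2 or limma-voom, beside 0.695% of all genes tested in edgeR. An unadjusted p under 0.05 was found for 2 of the 79, against 1126 of the 13815 genes tested. These were Uqcrh, at a log2 fold change of 0.17 ± 0.07 (SE), and the accessory complex I gene Ndufb8, at -0.18 ± 0.07, with adjusted p = 0.449 and 0.456 in edgeR. Ndufb8 read 52.5, 53.6 and 52.6 CPM in WT-exo and 45.7, 45.0 and 49.8 CPM in EKO-exo, which do not overlap. Uqcrh read 63.7, 56.6 and 57.1 CPM in WT-exo and 65.6, 70.2 and 63.3 CPM in EKO-exo, which do.

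The log2 fold change was above 0 for 34 of the 79 members, with a median of -0.02, against a median near 0 over all genes (0.0002). The values of all 7 core subunit genes of complex I were below 0 in the fit to all 9 libraries, and none of them passed the test. Their median was -0.04, with a median SE of 0.09. Of the 29 tested accessory genes of complex I, 16 were above 0 and 13 below, with a median of 0.02. For the genes that had passed against PBS, EKO-exo differed from WT-exo by -4.21% with an interval from -15.3% to 8.33% for Ndufa4 and by -11.1% with an interval from -22.1% to 1.47% for Uqcr10. For Ndufa4 the log2 fold change, -0.06, became -0.14, -0.04 and -0.02 without EKO-exo replicates 1, 2 and 3. Atp5g1 differed by 27.6% with an interval from -2.90% to 67.8% (adjusted p = 0.68 in edgeR), although its EKO-exo libraries lay above its WT-exo libraries, at 7.28, 6.48 and 5.52 CPM. The groups did not overlap for 8 members, 2 above and 6 below WT-exo, beside 14.0% of all genes tested. The 2 above were Atp5g1 and the accessory complex I gene Ndufa11, and the 6 below were Ndufb8, Cox5a, Cox6a1, Cox8a, Atp5j and Atp5o. In complex IV, Cox8a read 65.8, 71.2 and 71.7 CPM in EKO-exo against 74.95 CPM or more in WT-exo (-0.12 ± 0.06 SE, adjusted p = 0.635 in edgeR). Cox5a, which sits on the matrix side of the enzyme, had -0.13 ± 0.08, or -0.05 without EKO-exo replicate 2, and the ATP synthase stalk genes Atp5j and Atp5o -0.15 ± 0.08 and -0.19 ± 0.10, with adjusted p = 0.72, 0.639 and 0.68 in edgeR.

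Taking both exosome groups against PBS sets 6 libraries against 3 and uses the same libraries again. Ndufa4 rose, with a log2 fold change of 0.28 ± 0.08 (SE) and an adjusted p of 0.0254 in edgeR, and was the only member called, beside 5.31% of all genes tested. The change was 21% with an interval from 8.60% to 34.8%, and all 6 exosome libraries, at 35.0 to 41.3 CPM, were above the 3 PBS libraries. The call was lost without EKO-exo replicate 1 (adjusted p = 0.0917 in edgeR), PBS replicate 2 (0.156) or PBS replicate 3 (0.0946), the highest of 14 alternatives being 0.156 and the lowest 0.0101. Uqcr10 (0.23 ± 0.08, adjusted p = 0.106 in edgeR), Sdha (0.09 ± 0.03, adjusted p = 0.162), Atp5g1 (0.42 ± 0.17, adjusted p = 0.201) and Ndufc1 (0.35 ± 0.14, adjusted p = 0.212) did not pass. For 4 members, Ndufa4, Ndufa9, Ndufc1 and Sdha, all 6 exosome libraries were above all PBS libraries, beside 7.93% of all genes tested whose groups do not overlap.

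AA467197 encodes a small mitochondrial protein known to take the place of Ndufa4 in complex IV of inflamed macrophages, and was looked at after the value of Ndufa4 was seen. It read 2.599, 0.942 and 1.45 CPM in PBS, 2.16, 1.47 and 1.63 CPM in WT-exo and 1.20, 2.27 and 2.43 CPM in EKO-exo. All 3 groups overlap, and its adjusted p was 0.968 in WT-exo and 0.913 in EKO-exo against PBS in edgeR.

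The precision of these comparisons bounds how large a missed change could be. With wild-type exosomes against PBS, the 95% interval of 71 of the 79 members lay within a 1.5-fold change either way and that of 74 within 2-fold. The counts were 72 and 75 with ApoE-deficient exosomes against PBS and 73 and 74 between the exosomes. The members whose interval passed 2-fold were the low-count genes Ndufb4, Cox7a1, Cox6b2 and Atp5g2 in each of these, with Atp5s added in those that use WT-exo as a group of its own. For those genes a change was not detectable at this depth unless it was large.

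Summed over its subunits, the mRNA of each complex also stayed within a narrow range. Complex I summed to 1153, 1156 and 1236 CPM in PBS, 1192, 1238 and 1233 CPM in WT-exo and 1198, 1222 and 1214 CPM in EKO-exo. Complex II lay at 455.9 to 471.9 CPM in PBS, 473.9 to 493.0 CPM in WT-exo and 473.4 to 481.5 CPM in EKO-exo, so that both exosome groups were above PBS, a sum in which Sdha has the largest share. Complex III had 429.5 to 436.4, 409.8 to 441.4 and 407.8 to 443.0 CPM, with replicate 3 lowest in both exosome groups. Complex IV summed to 665.6, 671.0 and 715.9 CPM in PBS, 721.0, 714.4 and 720.5 CPM in WT-exo and 689.2, 692.1 and 694.9 CPM in EKO-exo, where every EKO-exo library was below every WT-exo library and PBS overlapped both. Complex V had 1331 to 1379, 1380 to 1399 and 1361 to 1379 CPM. No test was made on these sums.

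**Figure D4:**
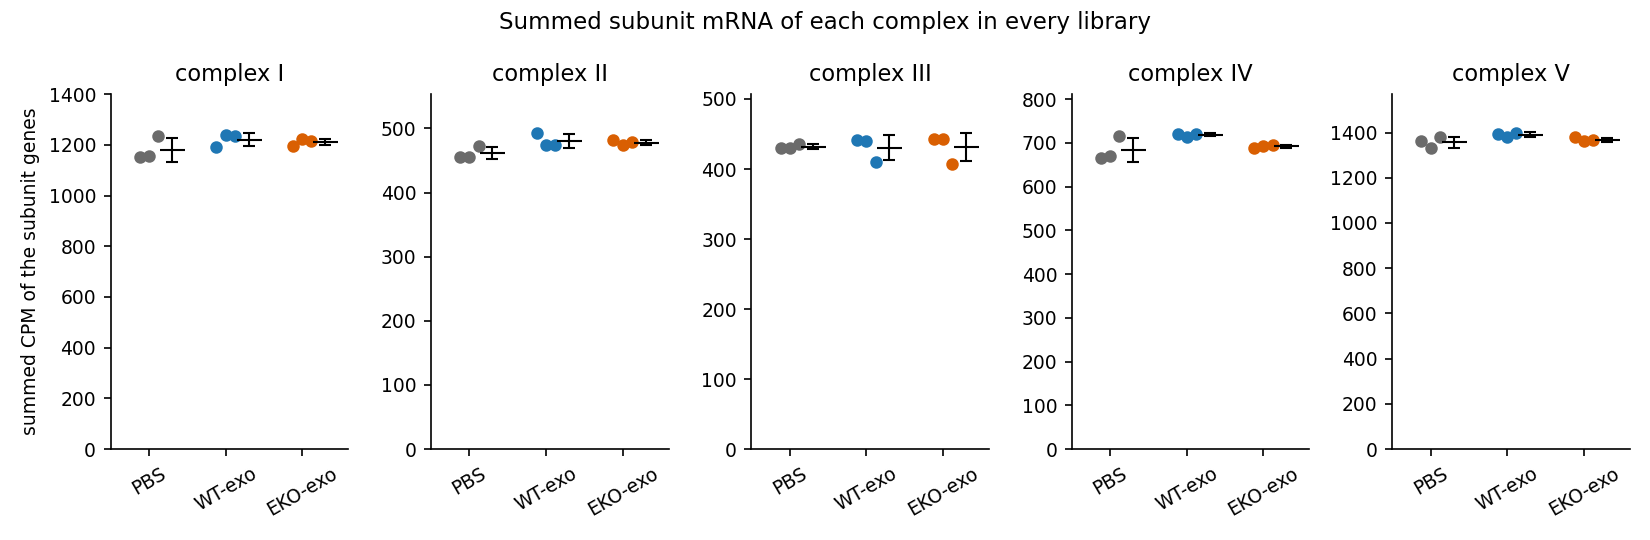
Summed CPM of the subunit genes of complexes I to V in every library of PBS (grey), WT-exo (blue) and EKO-exo (orange), with mean and SD in black and axes from 0. Groups differ by little in each complex, and in complex IV the EKO-exo libraries (689.2 to 694.9 CPM) lie below the WT-exo libraries (714.4 to 721.0 CPM).

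Of the 13 mRNAs encoded by mitochondrial DNA, 7 passed the filter and none was called in any comparison. Their summed level was 18194 to 19839 CPM in PBS, 17126 to 18960 CPM in WT-exo and 18195 to 19299 CPM in EKO-exo, several times that of the nuclear members at 4044 to 4247 CPM. All 7 had log2 fold changes below 0 with wild-type exosomes against PBS (median -0.04), the lowest p being that of mt-Cytb, the complex III subunit (-0.09 ± 0.03 SE, adjusted p = 0.131 in edgeR). The other 6 had 0 to 7 counts per library, among them mt-Co2 and mt-Atp6 at 0, beside mt-Co1 with 214325 counts or more, so their values say nothing of their expression.

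Among 47 genes listed as assembly factors, none was called in any comparison. Most such factors build the complexes without staying in them, but the list includes Ndufab1, a complex I subunit that the rule on symbols misses. The lowest p belonged to Ndufaf1, a complex I assembly factor, with log2 fold changes of 0.48 ± 0.18 (SE) and 0.48 ± 0.18 for WT-exo and EKO-exo against PBS (adjusted p = 0.172 in each in edgeR). None of the 77 tested mitochondrial ribosomal protein genes was called either, with median log2 fold changes of 0.03, 0.02 and -0.02 in the order WT-exo against PBS, EKO-exo against PBS and EKO-exo against WT-exo. None of the 14 genes of cytochrome c and coenzyme Q synthesis or the 6 mitochondrial carriers was called. In the same order, the medians were 0.09, 0.05 and -0.003 for the former and 0.06, 0.01 and -0.02 for the latter. Those of the 47 assembly genes were 0.06, 0.003 and -0.06, beside 0.06, 0.02 and -0.02 for the members. The 79 tested cytosolic ribosomal protein genes also had none called, and medians of -0.01, -0.02 and -0.01. They were not matched to the members in level or length. With WT-exo against PBS their median SE was 0.12, against 0.09 for the members.

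Of 15 tested regulators of mitochondrial biogenesis, 1 was called, beside 4.11% of all genes tested with WT-exo against PBS. Pprc1, a coactivator related to PGC-1 alpha, rose with wild-type exosomes against PBS by 0.25 ± 0.07 (SE) on the log2 scale (adjusted p = 0.0228 in edgeR), from 72.6 ± 5.17 to 86.2 ± 1.96 CPM (SD, n = 3). With ApoE-deficient exosomes the value was 0.16 ± 0.07 (adjusted p = 0.25 in edgeR), and both exosome groups against PBS gave 0.20 ± 0.06 (adjusted p = 0.0302 in edgeR). Whether the calls of Pprc1 hold with a library left out was not examined. Ppargc1a itself, which encodes PGC-1 alpha, had 0 to 8 counts per library and was not tested. Nrf1, Gabpa, Esrra and Tfam, which act on promoters of respiratory genes or on mitochondrial DNA, were expressed at 24.5 to 30.8, 54.0 to 67.1, 47.0 to 55.1 and 16.0 to 22.2 CPM and passed in no comparison. By merged exon length, 18 of the 79 tested members had up to 1000 bases, 31 more had up to 2000, 20 more had up to 4000 and 10 were longer. Over all genes of these classes, in the same order, the median log2 fold change was -0.0252, -0.0012, 0.0024 and -0.0049 with WT-exo against PBS, and -0.0028, -0.0189, -0.0013 and 0.0018 with EKO-exo against PBS, beside 0.06 and 0.02 for the members.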

How the data were processed

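RNA was measured by mRNA sequencing in 9 libraries of BMDM, 3 each with PBS, WT-exo and EKO-exo. The deposited values are raw read counts per Ensembl gene, made with STAR 2.7.5c on GRCm38 per the submitters' processing notes. Neither annotation release nor strand setting is given in the sources used here. All 55536 IDs were matched to GENCODE M21. Genes were filtered with filterByExpr (minimum count 10) and scaled by TMM, and CPM values use these factors. RPKM is CPM per kilobase of the principal transcript. edgeR 4.0.16 in R 4.3.3 fitted a robust quasi-likelihood model with group as its only term to all 9 libraries. P-values were adjusted by Benjamini-Hochberg over 13815 genes, and SEs and 95% intervals follow from the F statistics. With 3 libraries a group an exact permutation test of a gene could not pass, so none was run. Scripts were tested on simulated counts. Alternatives were DESeq2 1.42.0, limma-voom 3.58.1, RLE factors, no filter, the replicate number as a block, each library left out and only the libraries compared. Near-identical copies were found at 95% identity over at least 200 bases and 50% of the shorter transcript.

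Members and lists were chosen with earlier results of these data known. Genes named were called members, those with the lowest p in either direction per complex and comparison, the 2 highest and the lowest per complex, isoform families, members removed by the filter, and in other lists called genes or those with the lowest p. Total counts per library were 28581306 to 35929596. Values of 1 member are not reported here.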

Additional observations from a re-analysis of the deposited data

How the results depend on the processing

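DESeq2, limma-voom, RLE factors and no filter each left the same members called in all 4 comparisons. No pairing by replicate number was detectable. Deviations of same-numbered libraries correlated at -0.035 to 0.0402, and those of libraries with different numbers at -0.0483 to 0.0385. With the replicate number as a block, 2, 0, 0 and 1 members were called, and the median log2 fold changes were 0.0591 for WT-exo against PBS, 0.0221 for EKO-exo against PBS, -0.0196 for EKO-exo against WT-exo and 0.0265 for both exosome groups against PBS. An alternative chosen after the data were seen kept the 40 members with neither copy nor exon overlap. It gave medians of 0.0437 for WT-exo against PBS and 0.0193 for EKO-exo against PBS. The medians were -0.0334 for EKO-exo against WT-exo and 0.0249 for both exosome groups against PBS. It used the same fit and kept both called genes, so the count of calls could not change. With only the libraries compared in the fit, 0 members were called for WT-exo against PBS. The cause was not tested.

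With 1 library left out, the count of called members ran from 0 to 2 for WT-exo against PBS and from 0 to 1 for both exosome groups against PBS, and stayed at 0 in the other comparisons. The median log2 fold change of the members ran from 0.0325 to 0.0662 for WT-exo against PBS, from 0.0118 to 0.0404 for EKO-exo against PBS, from -0.0403 to -0.0115 for EKO-exo against WT-exo and from 0.0130 to 0.0517 for both exosome groups against PBS. Directions that turned did so only with a library left out and belonged to members that passed no test. The ranges of the log2 fold change for WT-exo against PBS were -0.6462 to 0.0490 for Atp5g2, -0.1008 to 0.0131 for Cox7a2, -0.0982 to 0.0105 for Cox7a2l, -0.1042 to 0.0723 for Sdhb, -0.0592 to 0.0548 for Sdhc and -0.0226 to 0.1787 for Sdhd. For EKO-exo against PBS they were -0.1121 to 0.0222 for Cox5a and -0.0877 to 0.0446 for Cox7a2. For EKO-exo against WT-exo they were -0.0098 to 0.0942 for Cox7a2l, -0.0136 to 0.158 for Sdhb and -0.0300 to 0.0798 for Sdhc. For both exosome groups against PBS they were -0.0850 to 0.0289 for Cox7a2, -0.0749 to 0.0276 for Cox7a2l and -0.0468 to 0.1546 for Sdhd. Of 1137 values of single members, 1101 kept their direction and their side of the threshold.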
